A study of Rattus norvegicus with 12 samples.

Results

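The CC chemokines of monocytes and T cells were followed in rat lung through 9 genes of the 14919 gene symbols found on the array, namely the ligands Ccl2, Ccl7, Ccl3, Ccl4, Ccl5, Ccl17, Ccl22 and Ccl20 and the receptor Ccr2. The members were listed by name and found through the RefSeq accession of each probe, which gave 10 of the 30367 rat probes, since Ccl20 had a second probe. Where a gene had more than 1 detected probe, the most intense one stood for it. All 9 genes were well above background on all 12 arrays, and no spot on any array was saturated.

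Lung RNA of male Sprague-Dawley rats of 8 to 12 weeks was hybridized in a single colour, with 3 arrays in each of 4 groups. The p-values measure the spread between these lung samples, which the labels number as replicates without saying more. Control rats had neither smoke nor LPS, with air and saline in their place. The CS + LPS group, a model of chronic obstructive pulmonary disease, was exposed to cigarette smoke (CS) and had lipopolysaccharide (LPS), a bacterial cell wall component, instilled into the trachea. The CS + LPS + NaHS group had the same exposure and was injected beforehand with NaHS, a salt that releases hydrogen sulfide (H2S), and the CS + LPS + PPG group was injected with PPG (propargylglycine), which blocks the H2S-producing enzyme CTH. The NaHS and PPG groups were both exposed to smoke and LPS, so neither agent was measured in lungs that were not exposed. RNA came from the upper left lobe as a whole, in which more cells of a type and more RNA per cell cannot be told apart.

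CC chemokines are small secreted proteins with a pair of adjacent cysteines that draw leukocytes out of the blood by binding G protein-coupled receptors of the CCR family. In the lung, CCL2 and CCL7 act through CCR2, the receptor that brings monocytes out of the bone marrow and into inflamed tissue. CCL3, CCL4 and CCL5 attract monocytes and T cells, CCL3 and CCL5 through CCR1 among other receptors. CCL17 and CCL22 act on CCR4 of T helper and regulatory T cells, and CCL20 on CCR6 of dendritic cells and of T helper cells that make IL-17.

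Of these 9 genes, Ccr2 differed from control in all 3 exposed groups, 2.24-fold in CS + LPS, 2.53-fold with NaHS and 3.00-fold with PPG. Ccl2 rose 2.51-fold in CS + LPS and 3.61-fold with PPG. The other 7 genes were not called DE against control in any group, although 6 of them, all but Ccl20, had a higher mean in each exposed group. No member was called DE when NaHS or PPG was compared with CS + LPS, and Ccl2 was higher with PPG than with NaHS.

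DE stands here for a fold change of at least 2 with an unadjusted p under 0.05 in the linear model of limma, with both thresholds taken from the methods of the study, and each adjusted p is the Benjamini-Hochberg value over all 21239 detected probes. Signals are scanner intensities scaled to the same 75th percentile on every array, and fold changes are differences of log2 signal. The 75th percentile of the unscaled signal ran from 856 to 2222. Control replicate 3 had the lowest correlation with the other arrays (0.936 to 0.957), and it shared slide 2 with the 3 CS + LPS arrays while the other 8 arrays lay on slide 1. Thus CS + LPS could be compared within a slide only with that 1 control array. Of 6 marker genes of lung epithelium, Sftpc, Sftpb, Sftpa1, Sftpd, Ager and Scgb1a1, all 6 were detected and 0 were called DE by limma in any comparison.

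**Figure D1:**
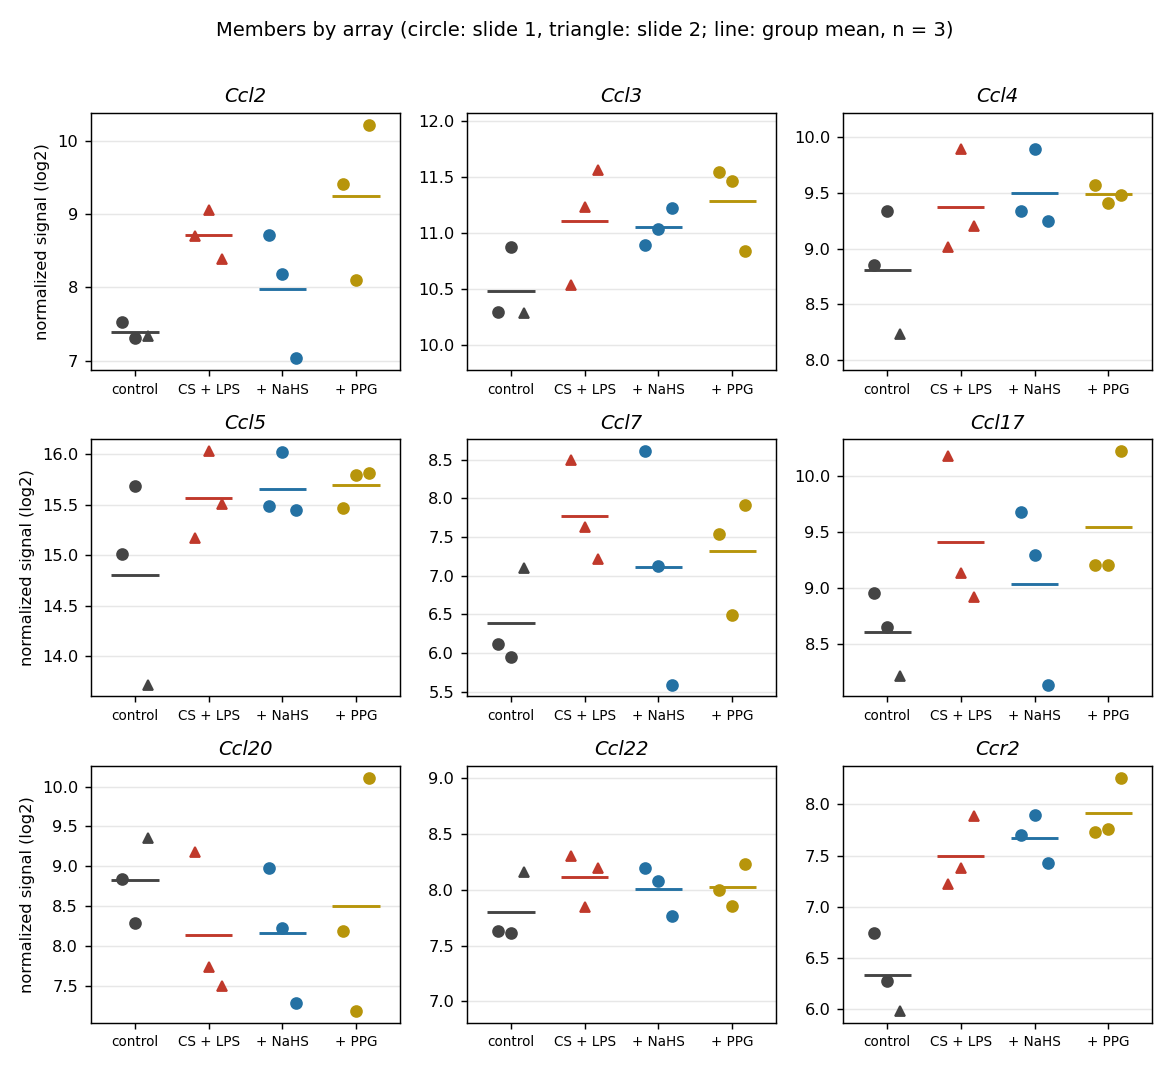
Normalized signal (log2, vertical axes differ between panels) of the 9 members on each of the 12 arrays by group, with replicates 1 to 3 from left to right, circles for slide 1, triangles for slide 2 and a line at the group mean (n = 3). In Ccr2 all 9 exposed arrays lie above the 3 control arrays, in Ccl2 NaHS replicate 3 falls below all controls, and in Ccl5 control replicate 3 lies far below the other arrays.

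Ccl2, the main monocyte attractant, was the ligand among the members that changed most clearly. Its probe lay at chr10:70257919-70257978 (plus strand) by the deposited lists of DE probes, whose genome build is not given. The signal was 185, 159 and 162 in control replicates 1 to 3, and 418, 534 and 335 in CS + LPS. With NaHS it was 422, 290.2 and 131, and with PPG 683, 276 and 1193. The CS + LPS and PPG arrays all lay above the 3 controls, whereas NaHS replicate 3 was the lowest of the 12 arrays.

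Against control, Ccl2 rose by 1.33 ± 0.51 (log2, SE, n = 3 per group) in CS + LPS (limma, adjusted p = 0.146) and by 1.85 ± 0.51 with PPG (adjusted p = 0.0598). With NaHS the difference was 0.58 (95% interval -0.53 to 1.70, adjusted p = 0.554). Among the 10 spots of this probe the coefficient of variation on an array was 2.35% to 10.5%, less than the spread between the arrays of a group exposed to smoke and LPS. The call in CS + LPS was lost with slide as a block (1.38), after normexp background correction (0.90) and on leaving out control replicate 2 or 3 or CS + LPS replicate 1 or 2 (values of 1.16 to 1.33), while the call with PPG held under the other scalings, filters, blocks and tests and with any 1 array left out, but not by an adjusted p under 0.05.

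Ccl7, a further CCR2 ligand whose gene neighbours Ccl2, had its probe at chr10:70268674-70268733 (plus strand, build not given). The signal was 69.6, 62.0 and 137 in control, 360.3, 198 and 148 in CS + LPS, 391, 139 and 48.2 with NaHS, and 187, 89.8 and 242 with PPG. All 3 CS + LPS arrays exceeded the controls, and the highest and the lowest of the 12 arrays were NaHS replicates 1 and 3. The difference in CS + LPS was 1.39 ± 0.68 (limma, adjusted p = 0.222), in NaHS 0.72 (adjusted p = 0.591) and in PPG 0.93 (adjusted p = 0.377), so none passed. In CS + LPS it was called under quantile normalization (1.59), in a fit of only the 2 groups compared, without control replicate 3 (1.74) and without NaHS replicate 1 or 3 (1.39), and it was 0.68 and not called with slide as a block. With NaHS it was called without NaHS replicate 3 (1.48) and was -0.035 without NaHS replicate 1.

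Ccl3, Ccl4 and Ccl5, attractants of monocytes and T cells, were higher in the mean of every exposed group by 0.56 to 0.89 (log2), and none reached a fold change of 2. Ccl3, which monocytes and macrophages release, was 1257, 1878 and 1245 in control, 1482, 2409.6 and 3039 in CS + LPS, 1899, 2096 and 2399 with NaHS, and 2996, 2839 and 1831 with PPG. The 3 NaHS arrays lay above the highest control, replicate 1 only just, and the other exposed groups overlapped with control. The difference was 0.63 (limma, adjusted p = 0.196) in CS + LPS, 0.57 (adjusted p = 0.325) with NaHS and 0.80 (adjusted p = 0.102) with PPG, where Ccl3 was called without PPG replicate 3 (1.03).

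Ccl4, released by monocytes and T cells, gave 461, 646 and 301 in control, 518, 947 and 589 in CS + LPS, 648, 950.2 and 609 with NaHS, and 759.6, 678 and 715 with PPG. The PPG arrays were tightly grouped above all controls, and the other exposed groups overlapped with control replicate 2. The difference was 0.56 (limma, adjusted p = 0.252) in CS + LPS, 0.69 (adjusted p = 0.274) with NaHS and 0.68 (adjusted p = 0.159) with PPG. The difference in CS + LPS was 1.13 with slide as a block, which compares it with control replicate 3 alone, the lowest control (301).

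Ccl5, made by activated T cells and natural killer cells, gave 33075, 52895 and 13448 in control, 36917, 66994 and 46489 in CS + LPS, 45866, 66779 and 44551 with NaHS, and 45328, 56817 and 57732 with PPG. Control replicate 3 was the lowest of the 12 arrays, and control replicate 2 lay inside the range of every exposed group. Against control, Ccl5 differed by 0.76 (limma, adjusted p = 0.266) in CS + LPS, 0.85 (adjusted p = 0.321) with NaHS and 0.89 (adjusted p = 0.184) with PPG.

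The value of Ccl5 depended on the control arrays. Without control replicate 3 the differences were 0.22 in CS + LPS, 0.30 with NaHS and 0.34 with PPG. Without control replicate 2 they were 1.21, 1.29 and 1.33 and were called. The difference in CS + LPS was 1.85 with slide as a block, a setting under which 4831 of the 21239 probes were called against 969 without it. The mean level of 13 T cell genes was also lowest on control replicate 3, at 7.74 (log2) against 8.75 to 9.65 on the other 11 arrays, and its part in the result was not tested.

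Ccl17 and Ccl22, dendritic cell and macrophage products that bind CCR4 and whose genes lie on the same chromosome, differed in how far they varied. Ccl17 gave 496, 401 and 296 in control, 1158, 559 and 485 in CS + LPS, 819, 625 and 281 with NaHS, and 589.8, 591 and 1191 with PPG. The PPG arrays lay above all controls, and CS + LPS replicate 1 and PPG replicate 3 stood far above the rest of their groups. The difference was 0.81 (limma, adjusted p = 0.277) in CS + LPS, 0.43 (adjusted p = 0.631) with NaHS and 0.94 (adjusted p = 0.191) with PPG.

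Ccl22 had the smallest standard error of the 9 genes (0.20), with 198, 196 and 286 in control, 316, 230.1 and 293 in CS + LPS, 293, 269.5 and 217 with NaHS, and 256, 231 and 301 with PPG. Control replicate 3 reached the level of the exposed arrays, so that every group overlapped with control. The differences were 0.32 (95% interval -0.12 to 0.75), 0.21 (-0.23 to 0.65) and 0.23 (-0.21 to 0.67), and all 3 intervals ended below a fold change of 2.

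Ccl20, the CCR6 ligand that epithelium makes, was the only member whose mean was lower in each exposed group than in control. The signal was 459.5, 313 and 654 in control, 580.1, 212 and 181 in CS + LPS, 502, 299 and 155 with NaHS, and 293, 145 and 1107 with PPG. The lowest and the highest of the 12 arrays were both in the PPG group, and all groups overlapped. The difference was -0.69 (limma, adjusted p = 0.540) in CS + LPS, -0.67 (adjusted p = 0.635) with NaHS and -0.33 (adjusted p = 0.780) with PPG, with intervals that reached from -2.27 to 1.24 over the 3 comparisons. The second Ccl20 probe gave -0.54, -0.64 and -0.18, and its highest and lowest arrays, 713 in PPG replicate 3 and 96.4 in NaHS replicate 3, were also in treated groups.

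Ccr2, the receptor of Ccl2 and Ccl7, carried the clearest difference of the 9 members. Its probe lay at chr8:128893805-128893864 (plus strand, build not given). The signal was 108, 77.5 and 63.1 in control, 149, 167 and 237 in CS + LPS, 209, 238 and 172 with NaHS, and 213, 217 and 307 with PPG. All 9 exposed arrays lay above all 3 controls. Ccr2 was the only 1 of the 9 members of which this was true, as it was of 5.23% of all detected probes.

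Against control, Ccr2 rose by 1.16 ± 0.25 (log2, SE, n = 3 per group) in CS + LPS (limma, adjusted p = 0.0448), by 1.34 ± 0.25 with NaHS (adjusted p = 0.0930) and by 1.58 ± 0.25 with PPG (adjusted p = 0.0206). The values were 1.52, 1.16 and 1.41 with slide as a block, each called. Without control replicate 3 the value in CS + LPS was 0.98, and without CS + LPS replicate 3 it was 0.97, both just under a fold change of 2. After normexp background correction, which adds an offset of 50 to every signal, the 3 values were 0.53, 0.69 and 0.88, so that none reached a fold change of 2.

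**Figure D2:**
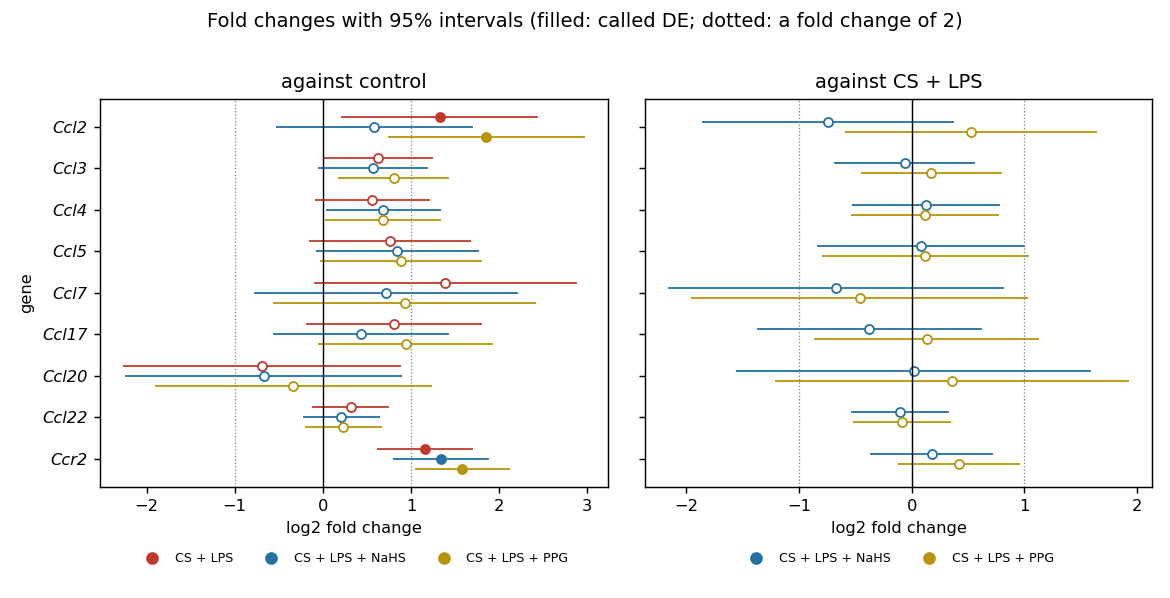
Log2 fold change of each member with its 95% interval (limma, n = 3 per group), on the left against control and on the right against CS + LPS, filled where called DE and with dotted lines at a fold change of 2. On the left Ccr2 is called in all 3 groups and Ccl2 in CS + LPS and PPG, and on the right no member is called.

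Read as counts, 2 of the 9 members, Ccl2 and Ccr2, were called DE in CS + LPS against control, where 4.56% of all detected probes were called and 1.65% were called higher. With NaHS 1 of 9, Ccr2, was called against 2.67% of all probes (1.3% higher), and with PPG 2 of 9, Ccl2 and Ccr2, against 4.38% (2.32% higher). By adjusted p under 0.05, Ccr2 passed in CS + LPS (2.02% of probes) and in PPG (4.64%), and 0 of 9 passed with NaHS (0.0989%). By an unadjusted p under 0.05 alone the counts were 3 of 9 in CS + LPS (Ccl2, Ccl3 and Ccr2, beside 25.2% of all probes), 2 of 9 with NaHS (Ccl4 and Ccr2, beside 17.1%) and 4 of 9 with PPG (Ccl2, Ccl3, Ccl4 and Ccr2, beside 29.3%). The median difference of the 9 members was 0.76 in CS + LPS, 0.58 with NaHS and 0.89 with PPG, beside medians of all probes of -0.04, 0.0038 and -0.01. The 3 comparisons share their control arrays.

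The arrays did not overlap, with the exposed group higher, for Ccl2, Ccl7 and Ccr2 in CS + LPS (3 of 9, against 12.9% of all probes). With NaHS this was so for Ccl3 and Ccr2 (2 of 9, against 12.7%), and with PPG for Ccl2, Ccl4, Ccl17 and Ccr2 (4 of 9, against 18.7%). With 3 arrays against 3, an exact permutation test of a single gene cannot give a p below 0.1.

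Whether H2S supply or block altered these chemokines in exposed lung was read from the comparisons with CS + LPS, which share the CS + LPS arrays. With NaHS 0 of 9 members were called by limma (1.7% of all probes were), 0 had an unadjusted p under 0.05 (9.67% of probes had) and 0 were called by the plain test of the study's methods. With PPG the 3 counts were also 0 (2.05% of all probes were called by limma and 10.5% had an unadjusted p under 0.05). No member's arrays separated the groups in either comparison, as 12.5% of probes did in the higher and 8.04% in the lower direction with NaHS, and 10.7% and 8.41% with PPG.

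For Ccl2, the difference from CS + LPS was -0.74 (95% interval -1.86 to 0.38, limma, adjusted p = 0.770) with NaHS and 0.53 (-0.59 to 1.64, adjusted p = 0.756) with PPG. For Ccr2 it was 0.18 (-0.37 to 0.72) with NaHS and 0.42 (-0.12 to 0.97) with PPG, and both intervals ended under a fold change of 2. For Ccl3, Ccl4 and Ccl22 the intervals also ended within a fold change of 2 in both comparisons, from -0.69 to 0.80 over the 3 genes, whereas those of Ccl7, Ccl17 and Ccl20 reached from -2.16 to 1.93. On leaving out 1 array, Ccl7 was called lower with NaHS than in CS + LPS without NaHS replicate 1 (-1.42), and Ccl2 was called higher with PPG without PPG replicate 2 (1.098). No slide held both sides of these comparisons, since all NaHS and PPG arrays lay on slide 1 and all CS + LPS arrays on slide 2. Ccl5 was called lower than CS + LPS with slide as a block, by NaHS (-1.55) and by PPG (-1.51), a setting under which 4224 and 4120 of the 21239 probes were called.

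The NaHS and PPG arrays shared slide 1 and could be compared directly. Ccl2 was called DE and was higher with PPG by 1.27 ± 0.51 (limma, adjusted p = 0.563), 1 of 9 members against 0.523% of all probes. The groups overlapped, since PPG replicate 2 (276) lay below NaHS replicates 1 (422) and 2 (290.2). The call was lost in the fit of slide 1 alone, in the fit of only the 2 groups compared, by the plain test of the study's methods, and on leaving out NaHS replicate 3 (0.80), PPG replicate 1 (1.18) or PPG replicate 3 (0.78). For the other 8 members the difference of PPG from NaHS lay between -0.0085 and 0.51, none called.

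**Figure D3:**
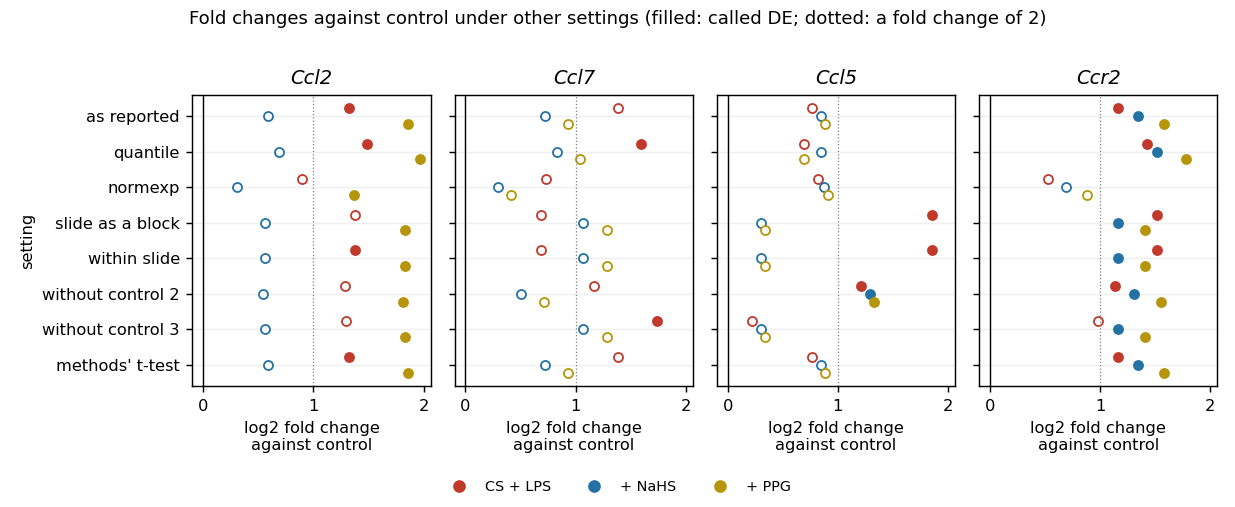
Log2 fold change against control of Ccl2, Ccl7, Ccl5 and Ccr2 under 8 settings (vertical axis), coloured by exposed group, filled where called DE, with a dotted line at a fold change of 2. Ccr2 stays above 1 under most settings and falls to 0.53 to 0.88 after normexp, while Ccl5 in CS + LPS runs from 0.22 without control replicate 3 to 1.85 with slide as a block.

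These genes also varied between arrays of the same group. The deviation of each array from its group mean (log2) was taken for every gene, over 12 arrays, and Pearson's r of these deviations was computed for all 36 pairs of members as a description, since all pairs come from the same arrays and share their tissue pieces and labelling. In 8 pairs r was at least 0.7. Of these, 7 were among Ccl2, Ccl7, Ccl17, Ccl20 and Ccl22, attractants for monocytes, T helper cells and dendritic cells, and the last was Ccl4 with Ccl5.

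The pair most alike was Ccl4 and Ccl5, with r = 0.91 (Spearman's rho 0.85, and r = 0.87 without the 2 arrays farthest from the median), and only 0.0896% of all detected probes were as like Ccl4. Ccl7 and Ccl20, whose genes lie on different chromosomes, had r = 0.82 (rho 0.91, r = 0.88 without 2 arrays), a likeness to Ccl7 that 0.203% of probes reached. Ccl2 had r = 0.80 with Ccl20 (0.66 without 2 arrays) and 0.78 with Ccl7 (0.59 without 2 arrays). Without 2 arrays r also fell below 0.7 for Ccl7 with Ccl17 (0.71 to 0.48) and Ccl17 with Ccl20 (0.79 to 0.64). It stayed above 0.7 for Ccl22 with Ccl7 (0.76) and with Ccl20 (0.71). In this set NaHS replicate 1 and PPG replicate 3 stood high and NaHS replicate 3 and PPG replicate 2 stood low, for example -1.52 for Ccl7 in NaHS replicate 3, and -1.32 and 1.62 for Ccl20 in PPG replicates 2 and 3.

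Ccl3 ran the other way. Its deviations had r = -0.85 with those of Ccl20 (rho -0.83, r = -0.73 without 2 arrays) and -0.73 with those of Ccl17 (-0.50 without 2 arrays). It was lowest on CS + LPS replicate 1 (-0.58) and PPG replicate 3 (-0.45) of their groups, the arrays on which Ccl20 was highest (1.04 and 1.62). Ccr2 had r between -0.0058 and 0.43 with the other members, and its r with Ccl2 was 0.38.

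**Figure D4:**
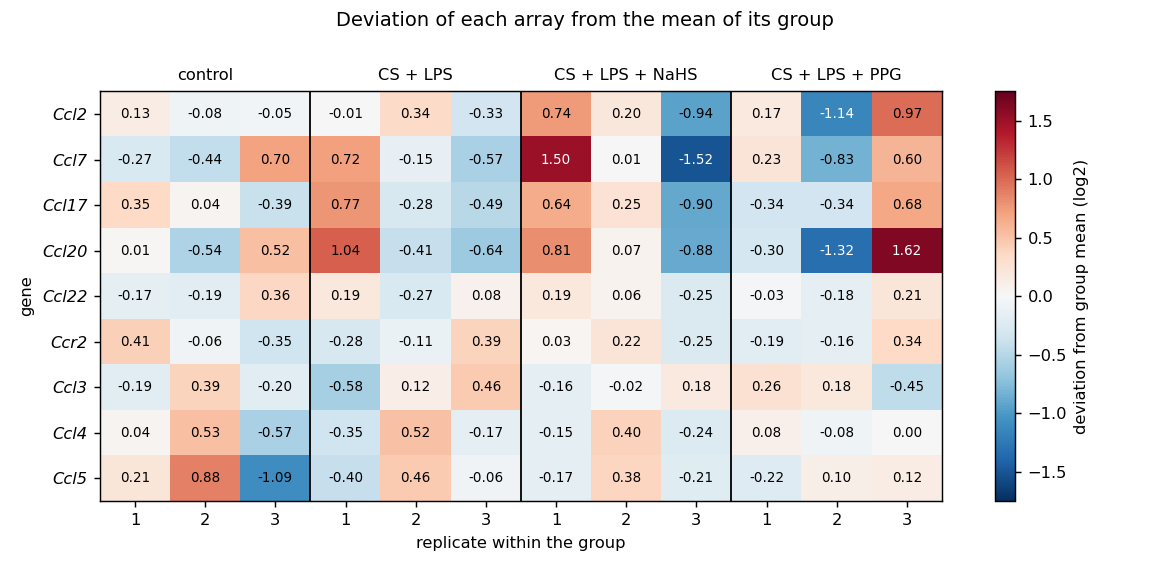
Deviation of each array from the mean of its own group (log2, colour and printed value) for the 9 members (rows) and the 12 arrays (columns, by group and replicate). Ccl2, Ccl7, Ccl17 and Ccl20 are high together on NaHS replicate 1 and PPG replicate 3 and low together on NaHS replicate 3 and PPG replicate 2, and Ccl4 and Ccl5 move together on control replicates 2 (0.53 and 0.88) and 3 (-0.57 and -1.09).

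Promoters of 3 genes whose deviations had r of at least 0.7 with another member, Ccl7, Ccl20 and Ccl17, are shown here. Ccl22 met this as well, and its promoter is not printed. That of Ccr2, whose r with the other members was at most 0.43, is shown beside the 3. RefSeq promoters of assembly GRCr8, from 250 bases before to 50 bases after the gene start, matched 5 of the 9 members. Capitals mark matches on either strand to a kappaB consensus, to the AP-1 site TGANTCA, which reads alike on both strands, and to TATAAA, and none of the matches overlap.
Ccl7 promoter, chr10:67513845-67514144, plus strand: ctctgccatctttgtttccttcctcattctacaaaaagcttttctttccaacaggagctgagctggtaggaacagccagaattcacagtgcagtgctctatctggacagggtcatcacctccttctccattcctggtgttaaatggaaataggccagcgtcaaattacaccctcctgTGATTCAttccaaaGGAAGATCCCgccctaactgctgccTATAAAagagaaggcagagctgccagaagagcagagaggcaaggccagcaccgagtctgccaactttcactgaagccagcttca
Ccl20 promoter, chr9:91836909-91837208, plus strand: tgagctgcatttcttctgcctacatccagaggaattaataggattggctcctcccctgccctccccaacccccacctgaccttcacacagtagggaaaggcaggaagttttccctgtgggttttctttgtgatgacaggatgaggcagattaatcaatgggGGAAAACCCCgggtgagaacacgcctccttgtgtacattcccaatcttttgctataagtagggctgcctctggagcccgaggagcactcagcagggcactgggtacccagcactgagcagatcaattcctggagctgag
Ccl17 promoter, chr19:10209846-10210145, minus strand: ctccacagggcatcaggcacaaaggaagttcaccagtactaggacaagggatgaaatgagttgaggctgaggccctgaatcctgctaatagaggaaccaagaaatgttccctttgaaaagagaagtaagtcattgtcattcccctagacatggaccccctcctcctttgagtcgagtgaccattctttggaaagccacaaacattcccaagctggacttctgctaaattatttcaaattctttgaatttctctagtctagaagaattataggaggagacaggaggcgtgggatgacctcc
Ccr2 promoter, chr8:132611953-132612252, plus strand: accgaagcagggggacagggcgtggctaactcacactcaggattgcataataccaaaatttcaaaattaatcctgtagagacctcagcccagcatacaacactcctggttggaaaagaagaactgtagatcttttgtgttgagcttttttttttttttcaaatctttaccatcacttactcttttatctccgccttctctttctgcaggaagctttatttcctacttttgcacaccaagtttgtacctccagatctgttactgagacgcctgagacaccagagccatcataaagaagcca
The Ccl7 promoter held a kappaB match (minus strand) and, upstream and downstream of it, an AP-1 match and a TATAAA. The Ccl20 promoter held a kappaB match as well (minus strand). The Ccl17, Ccl22 and Ccr2 windows held none of the 3 motifs. Of 33469 promoters of this length, 7.51% held a kappaB match, 7.33% an AP-1 match and 14.2% a TATAAA.

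For each member the 3 genes most alike were taken by Pearson's r of log2 signal over the 12 arrays, which includes differences between groups, and r was taken again over the 11 arrays without control replicate 3. Ccl4 was most like Zap70, a T cell receptor kinase (r = 0.955, 0.913 over 11 arrays), Kcne5 (0.948, 0.925) and Ccl5 (0.944, 0.908). Ccl5 was most like Tnfrsf18 (0.976, 0.910), Nfe2 (0.961, 0.851) and the Fc receptor gene Fcgr3a (0.961, 0.835). Among the probes most like Ccl3 were Eva1a (0.930, 0.914) and B3galt4 (0.926, 0.930).

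Ccr2 was most like LOC679583 (0.948, 0.916), Nagk (0.946, 0.922) and Tnfsf13, the cytokine gene APRIL (0.942, 0.925). Ccl2 was most like Cops3 (0.923, 0.913), LOC682968 (0.917, 0.914) and Cox7b (0.896, 0.901), and Ccl7 like Agmat (0.883, 0.883), Dnase1l3 (0.832, 0.841) and Pla2g5 (0.828, 0.841). Ccl17 was most like Tfb1m (0.922, 0.904), Uqcrc2 (0.887, 0.866) and the prostaglandin D synthase gene Hpgds (0.882, 0.851). Ccl20 was most like Glycam1 (0.914, 0.917), Il22ra2, the soluble IL-22 receptor (0.911, 0.913), and Calcb (0.911, 0.902), and Ccl22 like Npb (0.870, 0.873), Pnmt (0.866, 0.872) and Tnfrsf9 (0.848, 0.855). With 12 arrays and 21239 probes, values of this size describe these arrays only.

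Among 12 other CC ligands, 8 were detected. Against control 2 of 8 were called higher in CS + LPS, 1 of 8 with NaHS and 3 of 8 with PPG, none lower, with medians of 0.64, 0.38 and 0.64. Ccl9, a myeloid chemokine of rodents that binds CCR1, was 974, 1198 and 852 in control, 2737, 2021 and 2533 in CS + LPS, 3579, 6182 and 2808 with NaHS, and 4452, 2801 and 2902 with PPG. All exposed arrays lay above all controls, and Ccl9 rose by 1.27 (limma, adjusted p = 0.0506), 1.99 (adjusted p = 0.0360) and 1.73 (adjusted p = 0.0211).

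Ccl6, also a myeloid chemokine of rodents, was 25822, 25149 and 8945 in control, 33176, 39679.8 and 36536 in CS + LPS, 36293, 31328 and 31101 with NaHS, and 38174, 50733 and 57284 with PPG. It rose by 1.02 in CS + LPS (limma, adjusted p = 0.119) and 1.42 with PPG (adjusted p = 0.0465), and these values were 0.51 and 0.92 without control replicate 3, its lowest array, so that both calls were lost.

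Ccl12, a further CCR2 ligand of rodents, was well above background on no control array (15.3, 16.5 and 17.7) and on all 3 PPG arrays (117, 54.9 and 219.8). In CS + LPS it was 45.1, 51.0 and 13.4, well above background on 2 arrays, and with NaHS 30.8, 55.8 and 19.2, well above background on 1. PPG was 6.81-fold above control (2.77, limma, adjusted p = 0.0366). For this fold the control was taken at the higher of its own signal and the lowest signal well above background on each array. For Ccl12 that was its own signal, so the fold is an estimate and not a lower bound. The PPG arrays also lay above all 3 CS + LPS arrays (1.84, limma, adjusted p = 0.273), a difference that rests in part on the array not well above background. It was 1.23 without that array, CS + LPS replicate 3, and was not called with slide as a fixed or random block or by the plain test of the study's methods. Ccl12 was also called higher with PPG than with NaHS (1.81, limma, adjusted p = 0.563), 1 of 8 ligands against 0.523% of all probes. The arrays of these 2 groups overlapped, and Ccl12 was well above background on only 1 NaHS array. After normexp correction PPG differed from control by 0.86, from CS + LPS by 1.00 and from NaHS by 0.99, none of them called.

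**Figure D5:**
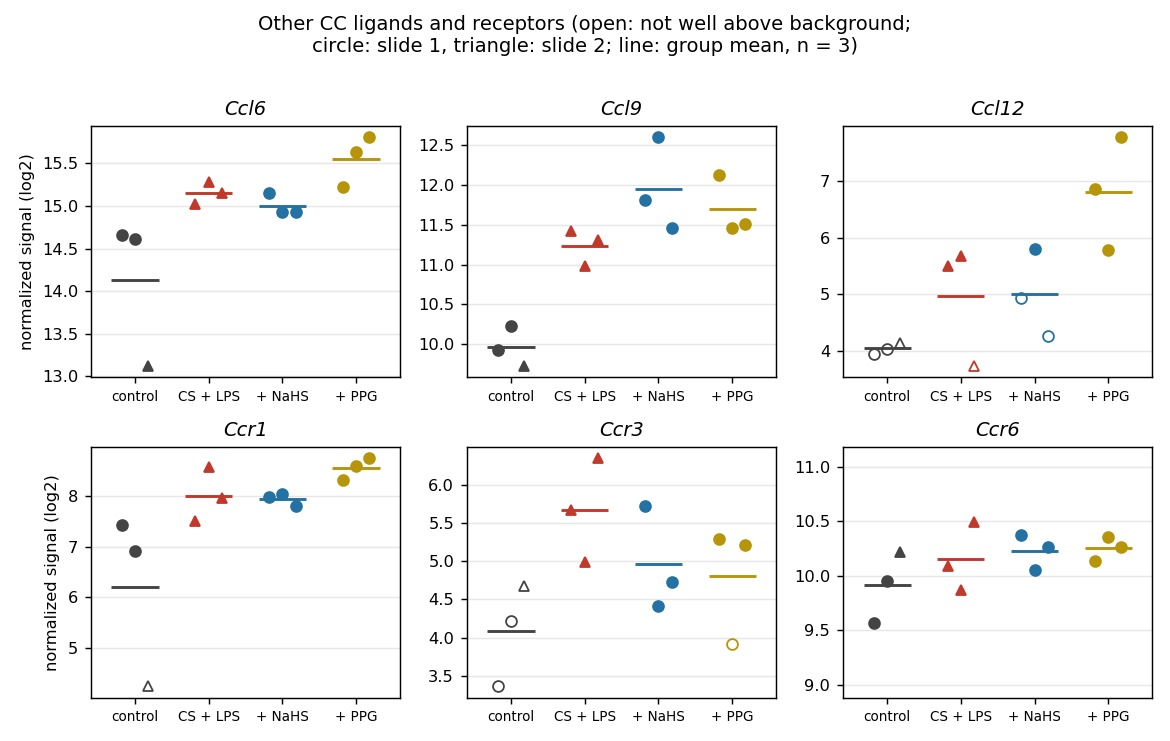
Normalized signal (log2, vertical axes differ between panels) of the CC ligands Ccl6, Ccl9 and Ccl12 and the CC receptors Ccr1, Ccr3 and Ccr6 on each array by group, with circles for slide 1, triangles for slide 2, open symbols where the probe was not well above background and lines at group means (n = 3). All 3 PPG arrays lie above the 3 CS + LPS arrays for Ccl12, and control replicate 3 is far below the other arrays for Ccl6 and Ccr1.

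Of 10 CC receptors other than Ccr2, 8 were detected and Ccr4, the receptor of Ccl17 and Ccl22, was not. Against control 2 of 8, Ccr1 and Ccr3, were called higher in CS + LPS, and 1 of 8, Ccr1, with NaHS. Ccr1, the receptor of Ccl3 and Ccl5 on monocytes and neutrophils, was 173, 121 and 18.9 in control, 182, 381 and 248 in CS + LPS, 254, 263 and 222 with NaHS, and 318, 389 and 431 with PPG. Every exposed array lay above every control, with differences of 1.81 (limma, adjusted p = 0.130), 1.74 (adjusted p = 0.229) and 2.36 (adjusted p = 0.0598). Without control replicate 3, which was not well above background, they were 0.83, 0.76 and 1.38, and the last was still called.

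Ccr3, the eotaxin receptor of eosinophils, was not well above background on any of the 3 controls. It was well above it on all 3 CS + LPS arrays (51.1, 31.7 and 81.5). With the control taken as for Ccl12 it was 2.86-fold higher, an estimate and not a lower bound. From the signals as measured the difference was 1.58 (limma, adjusted p = 0.104). That difference was 0.99 with slide as a block and 0.20 after normexp, not called in either. Ccr6, the receptor of Ccl20, differed from control by 0.24, 0.32 and 0.34, none called. Of 4 atypical chemokine receptors only Ackr3 was detected, and it was not called (0.04, -0.08 and -0.34).

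Genes of the cells that carry these receptors were listed beside them. Of 16 monocyte and macrophage genes 15 were detected, all but Marco, and 7 were called higher and 1 lower in CS + LPS, 4 higher with NaHS and 5 higher with PPG, with medians of 0.76, 0.64 and 0.67. The largest changes in CS + LPS were those of Trem2, a lipid receptor of macrophages (2.16, limma, adjusted p = 0.00673), Cd163, the haemoglobin scavenger receptor (-1.39, adjusted p = 0.162), and the lysosomal gene Cd68 (1.39, adjusted p = 0.0301). Cd163 was not called without control replicate 3 (-1.34), where Trem2 (2.30) and Cd68 (1.13) still were. The mean log2 level of the 15 genes ran from 10.48 to 10.998 in control and from 11.2 to 11.5 in the exposed groups, while their summed signal, set by the brightest genes, was 241940.3 to 373556 in control and 251681 to 312063 in the exposed groups. Their part in the rise of Ccr2 and Ccl2 was not tested.

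Of 14 T cell genes 13 were detected, all but Cd28, and 1, the adhesion gene Cd2, was called higher in CS + LPS (1.46, limma, adjusted p = 0.163), 0 with NaHS and 5 with PPG, of which Cd2 changed most (1.74, adjusted p = 0.0951). Without control replicate 3 Cd2 differed by 0.61 and 0.88 and was not called. Their summed signal ran from 7291 to 18645 over the controls and from 12511 to 22416 over the CS + LPS arrays. It lay between 15144 and 17604 for NaHS and between 18757 and 19912 for PPG. Of 12 T helper and regulatory T cell genes only 5 were detected and 0 were called by limma in any group against control.

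Of 11 neutrophil genes 9 were detected, and 2, 3 and 5 were called higher in CS + LPS, NaHS and PPG, led by the ficolin gene Fcnb (2.78, 2.74 and 2.61). Of 10 dendritic cell genes 7 were detected, and Batf3 was called in CS + LPS (1.05) and PPG (1.23). Without control replicate 3 the Batf3 values were 0.82 and 0.997, and both calls were lost. Of 15 NF-kB target genes 9 were detected, and 1, Tnf, was called with PPG (1.03, limma, adjusted p = 0.0472), with medians over the list of 0.37, 0.39 and 0.30. Without control replicate 3 Tnf differed by 0.97 with PPG and was not called.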

How the data were processed

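Total RNA from 12 rat lungs was hybridized to Agilent arrays in the Cy3 colour, and groups were read from the sample labels. The authors deposited scanner files (Feature Extraction 10.7.3.1) in which the processed signal of a spot is a linear intensity with background already removed. Of the 12 arrays, 3 held signals cut to 3 digits. The authors also deposited 5 lists of DE probes with a fold ratio, a p-value and log2 signals, from which only symbols and positions were taken (60 signal columns and 60 flag columns were left out).

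Signals were log2-transformed, outlier spots dropped, spots averaged for each probe, and each array was shifted so that its 75th percentile over probes equalled the mean of the 12 percentiles. A probe was kept when every array of some group rose well above background (21239 probes, 69.9%). Symbols came through RefSeq accessions of assembly GRCr8 (17514 probes) or from the lists (194 probes). All arrays entered 1 linear model without a block in limma 3.58.1 (R 4.3.3), which gave 6 comparisons, and precision was limited by the number of arrays. The code was tested on simulated data. Results for some genes are not reported here.

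The members, gene lists and comparisons were chosen with earlier results of these data known. All members were named, with called genes among CC ligands and receptors, up to 3 of the largest called changes of each marker list, and the 3 probes most like each member. Alternatives changed the scaling (quantile, or a percentile over probes above background everywhere), the background (normexp, offset 50, on median spot signals, the column at hand), outlier spots, the filter (3 others), the block (slide fixed, random or within, and replicate number), the arrays fitted (pairs of groups, each array left out), the test, the call rule and the choice of probe. Motifs and figures were made in Python 3.11.15 with pandas 2.3.3 and matplotlib 3.10.9.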

Additional observations from a re-analysis of the deposited data

Results flagged for a closer look

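Ccl2 differed between the NaHS and PPG groups. Its change against CS + LPS was higher with PPG than with NaHS by 1.27 (log2) in the linear model of limma (adjusted p = 0.563). It was picked out because this test of the difference itself passed an unadjusted p under 0.05 at a fold change above 2, although it failed the adjustment over all probes. The arrays of the groups overlapped, and the difference was 0.78 without PPG replicate 3 and 0.80 without NaHS replicate 3, neither of them called.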

How the results depend on the processing

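The number of members called (2 in CS + LPS, 1 with NaHS and 2 with PPG against control, 0 for NaHS and 0 for PPG against CS + LPS, 1 for PPG against NaHS) changed by more than 1.5 times as follows. With normexp correction it was 0, 0 and 1 against control, and by the adjusted p it was 1, 0 and 1 against control and 0 for PPG against NaHS. In CS + LPS against control it was 3 with slide as a block (Ccl4, Ccl5 and Ccr2), 3 under quantile normalization and 3 in the fit of only the 2 groups (Ccl2, Ccl7 and Ccr2 in both), within that tolerance. Within slide 2, where control replicate 3 was the only control, 4 members were called in CS + LPS (Ccl2, Ccl4, Ccl5 and Ccr2). With slide as a block, 1 member, Ccl5, was called for NaHS and 1, Ccl5, for PPG against CS + LPS. For PPG against NaHS it was 0 within slide 1, 0 in the fit of only the 2 groups and 0 by the methods' t-test. Leaving out 1 array gave between 1 and 3 for CS + LPS, between 1 and 2 for NaHS and between 2 and 3 for PPG against control, and 0 to 1 in each of the other 3 comparisons. The cause was not tested, except that an added offset of 50 shrinks folds of dim probes by construction.

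Several differences that were not called changed sign. Under the slide block, Ccl22 was -0.044 in CS + LPS against control (-0.044 within slide too), and against CS + LPS the values were -0.73 for Ccl4, -1.55 for Ccl5, 0.39 for Ccl7, 0.44 for Ccl22 and -0.35 for Ccr2 with NaHS, and -0.13 for Ccl3, -0.74 for Ccl4, -1.51 for Ccl5, 0.60 for Ccl7, -0.46 for Ccl17, 0.45 for Ccl22 and -0.11 for Ccr2 with PPG. With slide as a random block they were -0.44, -1.004, 0.032, 0.25 and -0.18 for Ccl4, Ccl5, Ccl7, Ccl22 and Ccr2 with NaHS, and -0.028, -0.45, -0.96, 0.24, -0.26 and 0.27 for Ccl3, Ccl4, Ccl5, Ccl7, Ccl17 and Ccl22 with PPG. For Ccl20 with NaHS against CS + LPS the value was -0.037 as the mean of its probes, -0.068 after quantile normalization and -0.038 after normexp. Quantile normalization also gave -0.0011 for Ccl5 with PPG against CS + LPS, and 0.020 for Ccl4 and -0.16 for Ccl5 with PPG against NaHS.

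Leaving out 1 array turned the sign of these differences, with lowest and highest values for NaHS against control Ccl7 -0.035 to 1.48, for PPG against control Ccl20 -1.14 to 0.32, for NaHS against CS + LPS Ccl3 -0.35 to 0.17, Ccl4 -0.074 to 0.38, Ccl5 -0.12 to 0.31, Ccl7 -1.42 to 0.089, Ccl17 -0.70 to 0.074, Ccl20 -0.39 to 0.54 and Ccl22 -0.24 to 0.020, for PPG against CS + LPS Ccl3 -0.12 to 0.40, Ccl4 -0.060 to 0.38, Ccl5 -0.075 to 0.35, Ccl17 -0.20 to 0.52, Ccl20 -0.45 to 1.02 and Ccl22 -0.22 to 0.0075, for PPG against NaHS Ccl4 -0.13 to 0.19, Ccl5 -0.063 to 0.23, Ccl7 -0.55 to 0.96, Ccl20 -0.47 to 0.99 and Ccl22 -0.11 to 0.11.

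The replicate numbers did not pair the arrays, since same-numbered arrays of different groups had deviations with r from -0.31 to 0.14 (2 of 18 pairs over 0.1). With the number as a replicate block, limma gave the same 2, 1 and 2 calls against control and 0, 0 and 1 in the other comparisons, with Ccl2 at 1.33 and Ccr2 at 1.16 in CS + LPS, both called. Normexp moved the median of all probes in CS + LPS against control from -0.04 to -0.14. Of the probes called in that comparison 36.2% were higher, and 61.6% after quantile normalization, which also moved this share from 87.5% to 74.4% for NaHS and from 86.9% to 74.5% for PPG against CS + LPS. Normexp moved it from 48.7% to 26.4% for NaHS against control. Slide as a block raised the probes called from 969 to 4831 in CS + LPS against control, where the t-test of the study's methods called 443 (1 after Benjamini-Hochberg adjustment).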
